A study of Mus musculus with 3 samples.

Results

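The comparison described here sets male C57BL/6j mice given 25(OH)D3 against males given the ethanol vehicle, in RNA of their inguinal lymph nodes. 25(OH)D3, or calcifediol, is the main circulating form of vitamin D3. Every mouse, vehicle mice included, had been painted with the contact sensitizer dinitrofluorobenzene (DNFB) on abdominal skin. Intraperitoneal injections began 3 days later, each of 25(OH)D3 at a daily dose of 4 µg/kg. Per the labels there were 4 consecutive daily injections and nodes were taken 24 hours after the last, whereas the series text speaks of 1 week of treatment. A library from mice given 20(OH)D3 at the same dose is quoted beside the pair where its value helps. There was 1 library for each of the 3 groups, and the labels do not say whether it came from 1 animal or several. No difference below therefore had a replicate check, no p-value is given, and "stood higher" or "stood lower" describes these libraries. The comparison covers 13428 of the 46951 loci in the deposited table (28.6%). Each of these averaged at least 1 FPKM (fragments per kilobase of transcript, scaled to library size) over the 3 libraries and had at least 20 normalized counts in them together.

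Vitamin D3 is hydroxylated in the liver to 25(OH)D3 by enzymes such as CYP2R1, and then by CYP27B1 to the hormone calcitriol, which binds the vitamin D receptor. The receptor pairs with the retinoid X receptor on DNA and switches on genes such as Cyp24a1, whose enzyme degrades vitamin D compounds. An inguinal node drains the skin of the flank and abdomen and lies within a subcutaneous fat pad, in which beige adipocytes can burn fuel for heat through the uncoupling protein UCP1. After painting with a sensitizer such as DNFB, dendritic cells carry the hapten to the node, where T cells divide and B cells can switch the class of their antibody.

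Each locus has an FPKM value, which is scaled to transcript length, and a normalized count, which is not. Dividing the normalized counts by a factor per library (1.01, 1.05 and 0.938 in the 25(OH)D3, 20(OH)D3 and vehicle libraries) brought 99.9% of loci to within 0.02 of a whole number. These are called reads below, although a factor so near 1 makes the recovery less certain for 25(OH)D3. Reads totalled 7991748, 7522550 and 8226431. Lymphocyte markers were abundant, with Cd3e of T cells at 136 FPKM with 25(OH)D3 and 112 FPKM with vehicle. Glycam1, a product of high endothelial venules, stood at 450 and 517 FPKM in the same order. The stromal chemokine genes were low for a node, Ccl19 at 4.29 and 5.81 FPKM and Ccl21a at 0.169 and 0.313 FPKM, with further copies listed at 0. The keratin genes Krt5 and Krt14 had 0 or 1 read in either library of the pair.

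Most of the transcriptome differed little between the 2 libraries. Ratios are log2 of (normalized count + 10) with 25(OH)D3 over vehicle, and their median was 0.01 with quartiles of -0.14 and 0.17. Of the 13428 loci, 94.9% lay within 1.5-fold. Over all of them 52.2% lay above 0 and 47.8% below, the shares to set beside the counts of list members given below. A locus is counted as higher or lower here when it was at least 2-fold apart in the same direction both on this scale and on log2 of (FPKM + 1), both of which understate the ratios of low genes. By that rule 59 loci stood higher with 25(OH)D3, which is 0.439% of those compared, and 18 stood lower, which is 0.134%. On FPKM alone 111 stood higher (0.827%) and 53 lower (0.395%), and on normalized counts alone 70 stood higher (0.521%) and 30 lower (0.223%). Rescaling FPKM to TPM, in which every library has the same total, moved the median log2 FPKM ratio to -0.12 from 0.03 and gave 51 higher and 27 lower loci. Of the 59 higher loci, 51 were named genes outside antibody and T cell receptor segments, predicted models, pseudogenes and small RNA genes, and of the 18 lower loci 7 were. Many rested on few reads, since 26 of the higher loci had fewer than 20 vehicle reads and 12 of the lower loci had fewer than 20 reads with 25(OH)D3. Since the libraries differ in depth, ratios below are of normalized counts although reads are printed beside them. They carry 95% exact (Clopper-Pearson) intervals, which cover counting error only and not the spread between animals or libraries. The reads carry no molecular identifiers and copies of a molecule are not independent, so the intervals can be too narrow even for counting error.

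Transcript length moved with the ratio. The median log2 count ratio was 0.11 in the shortest of 10 equal groups of loci by transcript length and -0.11 in the longest. Lists of short genes, such as those of the cytosolic ribosome and the respiratory chain, are therefore also given with the median of each gene's own length group taken off (written below as length taken off), over those members whose length is known. The part of length in these results was not tested further.

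**Figure D1:**
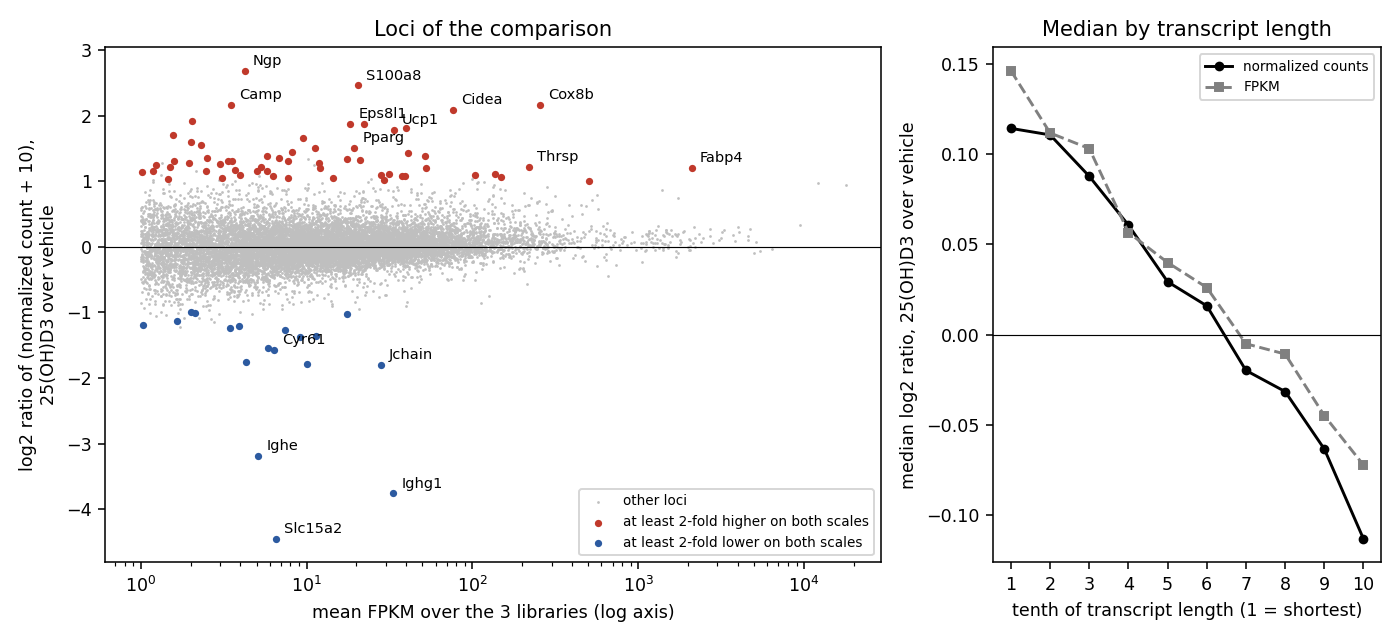
Left, the log2 ratio of (normalized count + 10), 25(OH)D3 over vehicle, for each of the 13428 loci against its mean FPKM over the 3 libraries (log axis), with the 59 higher and 18 lower loci coloured. Right, the median log2 ratio in each of 10 equal groups by transcript length, on normalized counts and on FPKM. The cloud is widest at low FPKM, and the count median is 0.11 in the shortest group and -0.11 in the longest.

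Genes of heat-producing brown and beige fat stood highest as a group. Of 16 genes in the thermogenic list that were among the loci compared, 16 had a log2 ratio above 0, against 52.2% of all loci. At least 2-fold higher stood 9 of the 16, against 0.439% of all loci. Slc27a2 (3.05, 0.834 and 0.847 FPKM with 25(OH)D3, 20(OH)D3 and vehicle) and Elovl3 (2.39, 0.827 and 0.492 FPKM) entered the comparison only through the 25(OH)D3 library. The count over the 16 is therefore a description. The list median was 1.20, against 0.77 with 20(OH)D3 over the same vehicle. For the 15 genes of known length it was 1.19 with length taken off. Without the filter on low values the list median was 0.92. In bulk RNA, more adipocytes and more RNA of these genes per adipocyte cannot be told apart. Ucp1, the uncoupling protein itself, stood at 44.8 FPKM with 25(OH)D3, 44.3 FPKM with 20(OH)D3 and 12.4 FPKM with vehicle. Cidea, which sits on lipid droplets in heat-producing adipocytes, was at 125, 77.0 and 28.4 FPKM in the same order. Slc27a2, a fatty acid transporter and acyl-CoA synthetase, had 65, 16 and 14 reads, so that 20(OH)D3 lay near vehicle for this gene.

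Elovl3, which lengthens fatty acids and is induced by cold in mouse brown fat, followed the same order on fewer reads, with 27, 9 and 6. The potassium channel gene Kcnk3 had 308, 268 and 127 reads, a ratio of 2.60 with 25(OH)D3 over vehicle (2.11 to 3.23). The proton channel gene Otop1 had 114, 95 and 43 reads, a ratio of 2.84 (1.99 to 4.14). The remaining members at least 2-fold higher were Cox8b, Cox7a1 and Fabp3, which are taken up with their partner genes below. The regulators of the programme were present at low levels. Prdm16, a transcriptional co-regulator of beige fat, was lowest of the list with 39, 68 and 39 reads and a log2 ratio of 0.08. Of the 22 symbols 6 were not among the loci compared. Among those 6 the coactivator gene Ppargc1a had 56, 63 and 29 reads and the deiodinase gene Dio2 46, 17 and 21, which are named here after their values were seen.

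The plain fat-cell list stood higher by less, and in a different order across the compounds. All 25 of its genes were among the loci compared. Of these 21 lay above 0, against 52.2% of all loci, and 4 stood at least 2-fold higher, against 0.439%. The median log2 ratio was 0.63. Against the same vehicle library the median with 20(OH)D3 was 1.78. The members' FPKM summed to 5810 with 25(OH)D3, 12771 with 20(OH)D3 and 3132 with vehicle, whereas the thermogenic list summed to 744, 708 and 244 FPKM. These sums describe 3 libraries, and how far the amount of fat in each node moved with any other result was not tested.

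The fat-cell genes at least 2-fold higher were Pparg, Aqp7, Fabp4 and Gpd1. Pparg encodes the nuclear receptor that directs adipocyte formation, and it had 280 reads with 25(OH)D3, 433 with 20(OH)D3 and 99 with vehicle, a ratio of 3.03 for 25(OH)D3 (2.40 to 3.86). Aqp7, the glycerol channel of adipocytes, had 128, 190 and 47 reads, a ratio of 2.92 (2.08 to 4.17). Gpd1, which makes glycerol phosphate, had 4052, 4119 and 2080 reads, a ratio of 2.09. At the other end of the list Nnat, an imprinted gene of small membrane proteolipid, had 263, 2088 and 406 reads. Slc7a10, an amino acid transporter of adipocytes, and Sncg, a synuclein, also lay below vehicle with 25(OH)D3 and above it with 20(OH)D3. Slc7a10 had 61, 335 and 96 reads, and Sncg had 79, 468 and 121. These last 2 genes are named after their values were seen. The fat-cell list therefore did not move as a block with 25(OH)D3.

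The promoters of Ucp1 and Pparg are shown because both were among the 15 highest genes and nuclear receptors are known to control them. In the thermogenic list Cox8b, Cidea and Cox7a1 stood above Ucp1. Only the first entry per gene was used, so any other start of Pparg was not searched. The 2 promoters are RefSeq sequences on build GRCm38.p6, 250 bases before to 50 after the gene start. Both are on the plus strand, at chr8:83290098-83290397 and chr6:115360894-115361193. Capitals mark the nuclear receptor core AGGTCA.
Ucp1: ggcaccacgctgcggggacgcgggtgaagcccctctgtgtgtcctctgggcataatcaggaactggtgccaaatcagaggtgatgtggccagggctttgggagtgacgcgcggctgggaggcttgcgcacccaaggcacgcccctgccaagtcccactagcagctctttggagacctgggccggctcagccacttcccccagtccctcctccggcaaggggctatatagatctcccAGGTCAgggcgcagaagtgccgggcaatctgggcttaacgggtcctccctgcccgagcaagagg
Pparg: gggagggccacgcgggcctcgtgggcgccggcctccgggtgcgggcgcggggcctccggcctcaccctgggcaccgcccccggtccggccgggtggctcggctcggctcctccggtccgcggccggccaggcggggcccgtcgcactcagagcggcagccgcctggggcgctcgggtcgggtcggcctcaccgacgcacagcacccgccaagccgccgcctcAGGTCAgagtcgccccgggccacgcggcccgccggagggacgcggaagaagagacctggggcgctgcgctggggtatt
The search covered both strands and counted AGGTCA also where it lay within a direct repeat. It was found in 9 of the 39 promoters matched to loci that stood 2-fold higher (23.1%). The share was 12.1% of 9044 promoters of loci compared and 16.0% of 27025 mouse promoters of this length. It was not particular to the higher loci, being in 2 of 5 promoters matched to 2-fold lower loci. Among lists described below it was in 6 of 22 promoters for type I interferon, 4 of 12 for interferon gamma and 1 of 11 for neutrophils. The full repeat of AGGTCA, any base and AGGTCA, known as a PPAR element, was found in 0 of the 39 and in 12 of the 27025. The DR3 vitamin D response element was found in 0 of the 39 and in 9 of the 27025. A match or its absence describes these letters in this window.

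**Figure D2:**
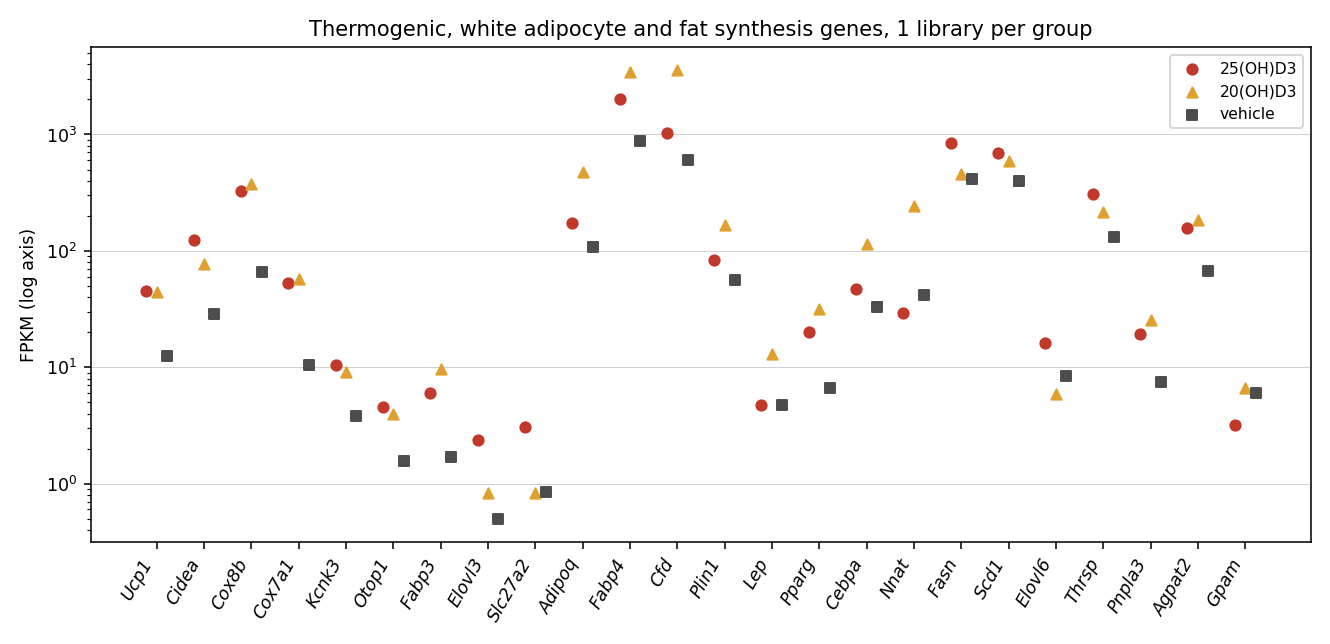
FPKM (log axis) of thermogenic, fat-cell and lipid synthesis genes in the 25(OH)D3, 20(OH)D3 and vehicle libraries, in that order from left to right for each gene, with 1 point per library. Ucp1 lies at 44.8 and 44.3 FPKM with the compounds and at 12.4 FPKM with vehicle, while Fabp4 is at 2007, 3461 and 877 FPKM.

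Among genes that build fatty acids and triglycerides, 17 of 21 lay above 0 with 25(OH)D3, against 52.2% of all loci. The list median was 0.58, against 0.15 with 20(OH)D3 over the same vehicle. Of the 21 genes, 3 stood at least 2-fold higher, against 0.439% of all loci. Pnpla3, a lipid droplet acyl hydrolase that rises with lipogenesis, had 751 reads with 25(OH)D3, 940 with 20(OH)D3 and 311 with vehicle. Thrsp, a nuclear regulator of lipogenic enzymes, had 2929, 1975 and 1344 reads, a ratio of 2.34 for 25(OH)D3 (2.19 to 2.50). Agpat2, an acyltransferase of triglyceride synthesis, had 1558, 1856 and 768 reads, a ratio of 2.18 (2.00 to 2.38).

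The enzymes of the pathway upstream of these can be followed step by step, and they are named here after their values were seen. Slc25a1, which carries citrate out of the mitochondrion, had 1700, 1128 and 926 reads. Acly, which splits that citrate, had 2942, 1875 and 2652 reads, a log2 count ratio of 0.25 against 0.64 on FPKM. Acaca, which makes malonyl-CoA, had 1953, 1289 and 1350 reads, a ratio of 1.55 (1.45 to 1.67). Me1, a source of NADPH, had 1795, 960 and 1090 reads, and Elovl6, which lengthens palmitate, had 792, 278 and 453. For Slc25a1, Acaca, Me1 and Elovl6 the 25(OH)D3 library was thus the highest, and for Elovl6 the 20(OH)D3 library lay below vehicle, at 5.86 FPKM against 8.47 FPKM. Mlxipl, the carbohydrate response factor ChREBP, had 282, 245 and 113 reads and a log2 ratio of 1.34 on counts but 0.87 on FPKM. Gpam, the acyltransferase that opens triglyceride synthesis, lay the other way, with 100, 202 and 202 reads. The desaturase genes Fads2 (56, 89 and 93 reads) and Fads1 (232, 224 and 304 reads) also lay below vehicle. Sterol synthesis genes stayed near 0, with 10 of 20 above 0 and a median of 0.03.

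Glucose metabolism genes showed a smaller displacement. Of 16 glycolysis genes 13 lay above 0, with a median log2 ratio of 0.27 and no member 2-fold apart on both scales. Hk2, the hexokinase of insulin-responsive tissue, was highest of the list with 337, 256 and 197 reads, and the glucose carrier gene Slc2a1 lowest with 431, 355 and 539. Pdk4, the kinase that shuts off pyruvate dehydrogenase when fat is burned, was among the 15 highest genes of the comparison, with 435, 349 and 158 reads and a ratio of 2.95 (2.46 to 3.57). A pair of glycogen genes stood at least 2-fold higher and are named after their values were seen. Gys2, the glycogen synthase of liver and fat, had 126, 85 and 55 reads. Ppp1r3b, which brings a phosphatase to glycogen, had 307, 127 and 135 reads, so that 20(OH)D3 lay by vehicle.

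Mitochondrial oxidation genes lay above vehicle over nearly whole lists, each by a modest amount. For fatty acid oxidation 19 of 20 genes lay above 0 with a median log2 ratio of 0.61. Etfb, the electron-transfer flavoprotein subunit that takes electrons from acyl-CoA dehydrogenases, was highest with 718, 709 and 371 reads at a locus it shares with Vsig10l. For the tricarboxylic acid cycle and its entry complex 20 of 20 lay above 0 with a median of 0.41. The succinyl-CoA ligase gene Suclg2 was lowest of these with 336, 359 and 327 reads. No member of either list was 2-fold higher on both scales. With 20(OH)D3 over the same vehicle the medians of these lists were 0.77 and 0.36.

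The respiratory chain followed the same direction. Complex I had 36 of 37 genes above 0 (median 0.45), complex III 10 of 10 (0.56), complex IV 13 of 15 (0.57) and ATP synthase 15 of 17 (0.24). With length taken off these medians were 0.34, 0.46, 0.46 and 0.14, over 35, 10, 15 and 14 genes of known length. With 20(OH)D3 over the same vehicle the medians on counts were 0.61, 0.78, 0.78 and 0.45, so that each lay above its value with 25(OH)D3. Loci of the mitochondrial chromosome stood in another order. They held 3.95% of normalized counts with 25(OH)D3, 2.93% with 20(OH)D3 and 2.12% with vehicle. How far this difference between libraries bears on the lists was not tested. Ndufa5, an accessory subunit of complex I, had 230, 337 and 139 reads, a ratio of 1.77 (1.43 to 2.21), and Ndufb2, at a locus shared with Adck2, was lowest with 402, 508 and 438. In complex III Uqcrq was highest with 799, 774 and 482 reads and the assembly factor gene Uqcc1 lowest with 246, 183 and 230. Atp5k, a small subunit of ATP synthase, had 259, 241 and 179 reads. Of 77 mitochondrial ribosome genes 69 lay above 0 at a median of 0.18. For the 70 of known length the median was 0.18, and 0.12 with length taken off. Cytosolic ribosome genes had 72 of 83 above 0 at a median of 0.11. For the 62 of known length the median was 0.12, and 0.02 with length taken off.

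Tissue-restricted isoforms stood further apart than their common partners. Cox7a1, the cytochrome oxidase subunit isoform of muscle and brown fat, had 94 reads with 25(OH)D3, 101 with 20(OH)D3 and 21 with vehicle, with an interval for the ratio of 2.97 to 8.12. Its widespread partner Cox7a2 had 540, 797 and 386 reads and an interval of 1.31 to 1.71. Cox8b had 489, 549 and 109 reads and an interval of 3.90 to 5.98, and for Cox8a the interval was 1.53 to 1.78. Cox6a2 had 33, 22 and 14 reads and a ratio of 2.53 (1.32 to 5.11), and Cox6a1 a ratio of 1.57 (1.44 to 1.70). The intervals of the first pair and of the Cox8 pair did not overlap, and those of the Cox6a pair did. Cox8b and Cox7a1 were among the 15 highest genes of the comparison by this ratio. Their distance from a partner therefore follows from that place, is no test of isoforms and is given as a description. On the length-scaled level the widespread form was still the more abundant in every pair, for instance 52.7 FPKM of Cox7a1 and 110 FPKM of Cox7a2 with 25(OH)D3.

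The other isoform pairs are described in the same way. Cpt1b, the carnitine palmitoyltransferase isoform of muscle and brown fat, shares its locus with Chkb, and this locus had 1171, 854 and 861 reads, a ratio of 1.46 (1.34 to 1.60). Cpt1a, the isoform of liver and most tissues, had 604, 608 and 978 reads, a ratio of 0.663 (0.598 to 0.734), and was the lowest gene of the oxidation list. The intervals of the 2 ratios did not overlap. Reads of the shared locus are not divided between Cpt1b and Chkb. Its ratio therefore cannot be assigned to Cpt1b, and this pair does not compare isoforms. Ucp2, the uncoupling protein of leukocytes, had 8846, 6199 and 8313 reads, a ratio of 1.14 (1.11 to 1.18). On FPKM it lay the other way, at 458 with 25(OH)D3, 471 with 20(OH)D3 and 511 with vehicle. Fabp3, the fatty acid binding protein of muscle and brown fat, had 33, 51 and 10 reads, a ratio of 3.54 (1.70 to 8.05), and the interval of Fabp4, at 2.31 (2.24 to 2.38), lay within that range.

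Some neutrophil genes, mostly of granule proteins, stood several-fold higher, on few reads. Of 24 neutrophil symbols 13 were among the loci compared. Of these 11 lay above 0, against 52.2% of all loci, and 6 stood at least 2-fold higher, against 0.439%. The median log2 ratio was 0.47 on counts and 0.95 on FPKM. With 20(OH)D3 over the same vehicle 10 of the 13 lay above 0 at a median of 0.77 on counts. The members' FPKM summed to 130 with 25(OH)D3, 149 with 20(OH)D3 and 34.9 with vehicle. Each of the 6 genes at least 2-fold higher had a lower FPKM with 20(OH)D3 than with 25(OH)D3. The larger sum with 20(OH)D3 thus came from other members of the list. Ngp, a cathelin-related granule protein, had 102 reads with 25(OH)D3, 5 with 20(OH)D3 and 8 with vehicle. Camp, the cathelicidin, which is itself a known vitamin D receptor target in human but not in mouse cells, had 47, 2 and 3 reads. For both genes the 20(OH)D3 library lay with vehicle. Lactoferrin, Ltf, which fell just short of the expression filter, had 31, 2 and 3 reads, and is named after its values were seen. It had the most reads with 25(OH)D3 of the 11 symbols outside the comparison. A gene low in the other libraries could enter the comparison through 1 library, so the count over the 13 is a description.

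The other neutrophil genes that stood 2-fold higher differed in where 20(OH)D3 lay. Lcn2, the siderophore-binding lipocalin, had 30, 10 and 4 reads, and Mpo, the myeloperoxidase of primary granules, had 16, 12 and 2. S100a8 and S100a9, the subunits of calprotectin, had 91, 58 and 9 reads and 109, 56 and 24 reads, so that 20(OH)D3 lay between. The members below 0 on counts were Cxcr2, a chemokine receptor and the lowest of the list with 180, 147 and 209 reads, and Csf3r, the receptor of the growth factor G-CSF, with 141, 142 and 153. Ly6g, a marker of mouse neutrophils, had 2, 0 and 0 reads, too few to compare. Csf3r and Ly6g are named after their values were seen. Over the whole list summed reads of the 13 members were 828 with 25(OH)D3 and 498 with vehicle. Erythroid genes, as a marker of blood or marrow cells, had 4 of 5 above 0 and a median of 0.49, against a median of 1.33 with 20(OH)D3 over the same vehicle. Hbb-bt, the minor adult beta globin, was highest with 20, 37 and 10 reads, and Alas2, the haem synthesis enzyme of red cell precursors, lowest with 5, 43 and 16. The globin genes are near-identical and can exchange reads. The part of blood cells in the neutrophil values was not tested.

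The promoter of Ngp is shown because Ngp had the highest log2 count ratio of the whole comparison, 2.69, and because C/EBP factors are known to drive granule genes. It is the RefSeq window on GRCm38.p6 at chr9:110419558-110419857, plus strand, with matches to the C/EBP letters TTGCNNAA on either strand in capitals.
Ngp: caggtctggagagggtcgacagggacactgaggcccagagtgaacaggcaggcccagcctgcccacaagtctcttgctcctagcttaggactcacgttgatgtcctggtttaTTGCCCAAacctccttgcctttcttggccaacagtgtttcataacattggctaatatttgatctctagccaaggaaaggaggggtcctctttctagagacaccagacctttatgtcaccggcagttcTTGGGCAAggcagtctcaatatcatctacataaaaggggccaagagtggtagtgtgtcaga
These letters were found in 3 of the 11 matched neutrophil promoters, those of Ngp, S100a9 and Lcn2. They were in 4 of the 39 promoters matched to 2-fold higher loci (10.3%) and in 1 of 5 matched to 2-fold lower loci. The share was 8.56% of the 9044 promoters of loci compared and 10.8% of the 27025 mouse promoters.

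Several other genes among the 15 highest belonged to neither fat nor neutrophils by their known roles. Eps8l1, of the actin-regulating Eps8 family, had 654 reads with 25(OH)D3, 170 with 20(OH)D3 and 183 with vehicle, a ratio of 3.83 (3.25 to 4.54). It stood apart with 25(OH)D3 while 20(OH)D3 lay by vehicle. Gpx8, a peroxidase of the endoplasmic reticulum, had 363, 373 and 138 reads, a ratio of 2.82 (2.31 to 3.46), and lay near the same level with both compounds. Proca1 had 43, 80 and 11 reads. Myl1, a myosin light chain of fast skeletal muscle, had 73, 60 and 22 reads, whereas Ckm, the muscle creatine kinase, had 2, 1 and 1, and the muscle list had 4 of 15 symbols among the loci compared. Erdr1 lies in a region shared by the sex chromosomes and had 408, 190 and 161 reads, with a copy-dependent assignment that leaves its value uncertain. Among predicted models Gm43305, on chromosome 14, rested on the most reads, with 822, 96 and 271, and was chosen after its values were seen. Saa3 and Orm1, which encode acute phase proteins, stood at least 2-fold higher with 23, 8 and 5 reads and 154, 216 and 76 reads, although the acute phase and complement list as a whole had a median of -0.04.

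Switched antibody classes were among the lowest genes of the comparison. Ighg1, the constant region of IgG1, had 44 reads with 25(OH)D3, 150 with 20(OH)D3 and 773 with vehicle, and was 16.4-fold lower with 25(OH)D3 than with vehicle (12.1 to 22.7). Ighe, the constant region of IgE, had 5, 26 and 135 reads and was 25.2-fold lower (10.5 to 78.8). Ighg2c had 42, 106 and 133 reads and was 2.95-fold lower (2.07 to 4.28). These were 3 of 12 constant region genes, against 0.134% of all loci that stood lower. The unswitched classes were close to level, with Ighm at 17758, 14803 and 19224 reads and Ighd at 13831, 10565 and 14189. Ighg3 had 34, 187 and 57 reads, Ighg2b 92, 218 and 113, and Igha, of IgA, 17, 33 and 14, so that not every switched class lay lower by 2-fold. The classes other than Ighg1, Ighe and Ighg2c are named after their values were seen. Near-identical constant region genes can exchange reads, and no source used here says whether the counting used strand.

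Genes of the antibody-secreting cell did not move with these classes as a list. Jchain, which joins IgM and IgA multimers, had 99, 422 and 396 reads, a 3.73-fold lower value (2.98 to 4.70). It was the only member of the plasma cell list that stood 2-fold lower, and the median over 17 members was -0.02 with 8 above 0. Xbp1 and Prdm1, factors that direct plasma cell formation and are named after their values were seen, had 1144, 1399 and 1149 reads and 72, 57 and 74 reads. Antibody variable segments totalled 4030 reads with 25(OH)D3 and 5118 with vehicle over 128 loci, of which 94 lay below 0, at a median of -0.18. By comparison 47.8% of all loci lay below 0. The segments Ighv2-6, Ighv2-9 and Igkv4-86 stood at least 2-fold lower, on 3, 4 and 15 reads with 25(OH)D3 and 37, 28 and 44 with vehicle. In background, IL-4 from T cells is what drives switching to IgG1 and IgE in the mouse. Il4 had 3, 1 and 2 reads and Il13 had 3, 0 and 0, too few to compare. The type 2 cytokine list had a median of 0.00, with Tslp lowest at 7, 10 and 13 reads. Germinal centre and follicular T cell genes had a median of -0.01 with 6 of 13 above 0.

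**Figure D3:**
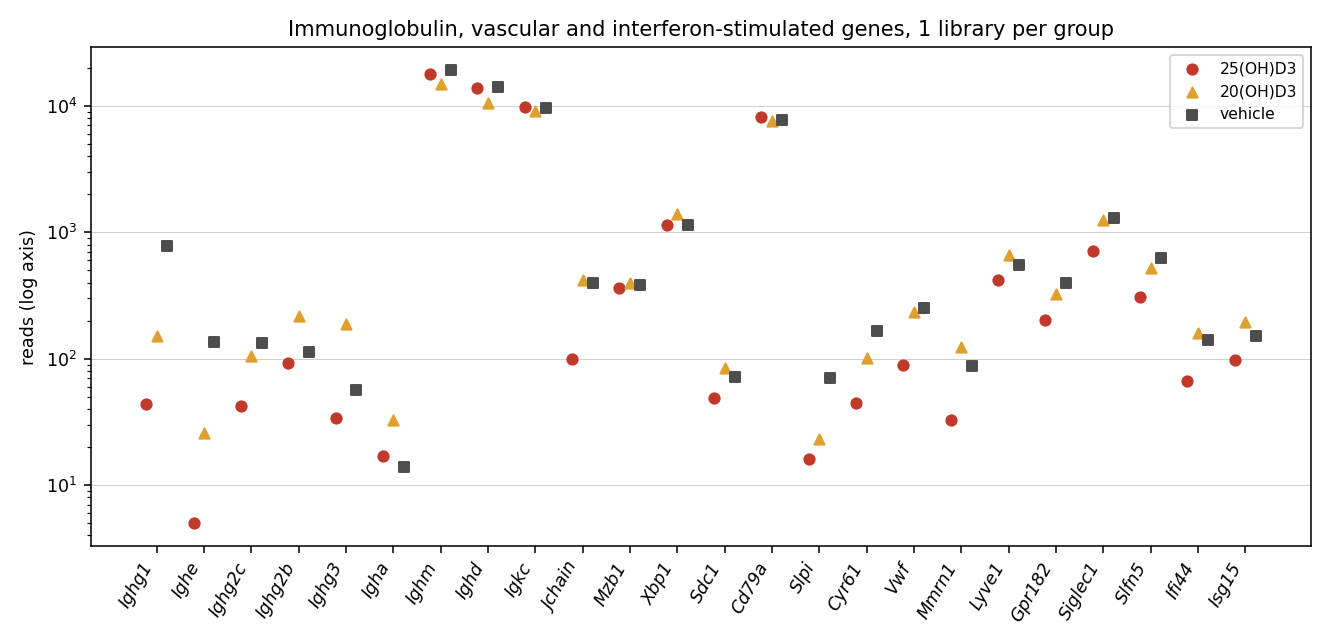
Reads (log axis) of antibody, plasma cell, vessel, macrophage and interferon-stimulated genes in the 25(OH)D3, 20(OH)D3 and vehicle libraries, in that order from left to right for each gene, with 1 point per library. Ighg1 is at 44, 150 and 773 reads and Jchain at 99, 422 and 396, while Ighm lies at 17758, 14803 and 19224.

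The remaining lower genes were of several kinds. Slc15a2, an oligopeptide transporter, had the lowest log2 count ratio of the named genes and was listed at 0 with 25(OH)D3, at 110 reads with 20(OH)D3 and at 223 with vehicle. A listed 0 in this kind of table can be a failed estimate, so no fold is given. Cyr61, a matricellular protein and early response gene, had 45, 101 and 165 reads and was 3.42-fold lower (2.44 to 4.86). Slpi, a secreted inhibitor of leukocyte proteases, shares its locus with Mir7678, and this locus had 16, 23 and 70 reads. Ctgf, a relative of Cyr61, had 14, 48 and 44 reads, with a log2 ratio of -1.09 on counts and -0.86 on FPKM, and is named after its values were seen. The list of proteinase inhibitors and matricellular proteins that holds these 3 had 4 of 13 members above 0 and a median of -0.29. For the 10 members of known length, which leave out Cyr61 and the Slpi locus, the median was -0.17, and -0.09 with length taken off. Tlr11, a receptor for microbial profilin in mice, had 112, 101 and 229 reads and lay low with both compounds. Ica1l had 16, 38 and 40 reads.

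Vessel and mast cell genes lay lower by smaller amounts, and mostly on modest reads. Of 12 lymphatic endothelial genes 1, Pdpn, lay above 0, and the median log2 ratio was -0.39. With 20(OH)D3 over the same vehicle the list median was 0.17. Mmrn1, a multimerin of lymphatic vessels, had 33, 124 and 87 reads and was lowest of the list at a log2 ratio of -1.08 on counts and -0.75 on FPKM. Prox1, the factor that defines lymphatic identity, had 117, 154 and 191 reads, a ratio of 0.657 (0.518 to 0.832). Stab2, a scavenger receptor of sinus endothelium, had 182, 282 and 303 reads, a ratio of 0.644 (0.533 to 0.777). Prox1 and Stab2 are named after their values were seen. Gpr182, an atypical receptor of sinus and lymphatic endothelium, was among the 15 lowest genes, with 202, 323 and 398 reads and a ratio of 0.545 (0.457 to 0.647).

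Blood endothelial genes had 6 of 19 above 0 and a median of -0.15. Vwf, the platelet-binding factor of vessel walls, was lowest with 90, 235 and 253 reads, a log2 ratio of -1.30 on counts and -0.60 on FPKM, and Emcn highest with 122, 140 and 112 reads. Of 6 mast cell and basophil genes 1, Kit, lay above 0, and the median was -0.54. Mcpt4, a chymase of connective tissue mast cells, had 83, 171 and 182 reads, a ratio of 0.489 (0.373 to 0.638). Tpsb2, a tryptase, had 55, 93 and 110 reads, and Cma1, another chymase, had 35, 57 and 62, both named after their values were seen. For these 3 proteases the 20(OH)D3 library lay nearer to vehicle. The basophil protease gene Mcpt8 was listed at 0 in all 3 libraries.

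Macrophage genes divided. The macrophage list had 6 of 16 above 0 and a median of -0.07 on counts and 0.03 on FPKM. Siglec1, the sialic acid receptor of subcapsular sinus and medullary macrophages, was lowest with 710, 1262 and 1307 reads, a ratio of 0.583 (0.531 to 0.639). Timd4 (1189, 1607 and 1816 reads), Folr2 (114, 174 and 190) and Marco (1404, 1901 and 1897), which are also surface genes of resident macrophages and are named after their values were seen, lay in the same direction. Hmox1, the haem-degrading enzyme, was highest with 664, 520 and 567 reads. The complement subunit gene C1qa had 1214, 1800 and 1215 reads, level between 25(OH)D3 and vehicle, and is likewise named after its values were seen.

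Interferon-induced genes lay slightly but widely lower. Of 33 genes induced by type I interferon 29 lay below 0, against 47.8% of all loci. The median log2 ratio was -0.22, against -0.01 with 20(OH)D3 over the same vehicle. None stood 2-fold lower. Ifi44, a cytosolic interferon-induced protein, was lowest with 67, 161 and 141 reads, a ratio of 0.510 (0.375 to 0.687). The antiviral tetratricopeptide gene Ifit3 had 307, 442 and 498 reads, a ratio of 0.661 (0.572 to 0.764). The ubiquitin-like modifier gene Isg15 had 97, 195 and 152 reads, a ratio of 0.685 (0.525 to 0.889), and the helicase sensor gene Ifih1 had 204, 278 and 290, a ratio of 0.755 (0.628 to 0.906). Ifi27l2a was highest with 1176, 7090 and 1005 reads, and the antiviral GTPase gene Mx1 also lay above vehicle with 402, 240 and 369. Slfn5, a Schlafen gene known to respond to interferon, was among the 15 lowest genes with 310, 525 and 628 reads, a ratio of 0.530 (0.461 to 0.608). The genes Ifit3, Isg15, Ifih1 and Mx1 are named after their values were seen.

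Genes induced by interferon gamma had 12 of 15 below 0 at a median of -0.14. For the 10 members of known length the median was -0.06, and -0.08 with length taken off. Cxcl10, the chemokine ligand of CXCR3, was lowest with 112, 125 and 172 reads. Socs1, the inhibitor of cytokine receptor kinases, was highest with 251, 346 and 141 reads, a ratio of 1.91 (1.55 to 2.36), so that the list was not uniform. The Isg15 promoter is shown because most of its list lay below 0 and such promoters are known to bind interferon-activated factors. It is the RefSeq window on GRCm38.p6 at chr4:156200769-156201068, minus strand, with 3 overlapping matches to the interferon element (GAAA, any 2 bases, GAAA) in capitals.
Isg15: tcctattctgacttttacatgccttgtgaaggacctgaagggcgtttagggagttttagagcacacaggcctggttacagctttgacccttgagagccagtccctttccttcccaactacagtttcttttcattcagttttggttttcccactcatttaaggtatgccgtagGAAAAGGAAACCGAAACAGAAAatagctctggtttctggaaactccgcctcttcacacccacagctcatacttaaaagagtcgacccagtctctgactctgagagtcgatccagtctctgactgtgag
On either strand these letters were found in 12 of 22 matched promoters of the type I list (54.5%) and 10 of 12 of the interferon gamma list (83.3%). They were found in 3.49% of the 27025 mouse promoters. Because the lists hold genes known to be induced by interferon, these shares do not depend on the libraries and say nothing about the ratios.

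Genes of cell division lay lower by a small amount as well. Of 23 cell cycle genes 4 lay above 0, against 52.2% of all loci. The median log2 ratio was -0.21, against -0.28 with 20(OH)D3 over the same vehicle. Plk1, a mitotic kinase, was lowest with 104, 118 and 163 reads, a ratio of 0.685 (0.530 to 0.881), and Mki67, the proliferation antigen, had 647, 516 and 875 reads, a ratio of 0.793 (0.716 to 0.879). Tyms, which makes thymidylate, was highest with 104, 87 and 83. Mki67 is named after its values were seen. The replication-dependent histone genes did not follow. Only 9 of their 70 symbols were among the loci compared, 8 of the 9 lay above 0, and their median was 0.45. Without the filter on low values the histone median was 0.

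The vitamin D receptor gene and those of the enzymes that make and degrade calcitriol had few reads in these libraries. Vdr, the receptor, had 16 reads with 25(OH)D3, 24 with 20(OH)D3 and 34 with vehicle, a ratio of 0.505 (0.260 to 0.940), and lay below the expression filter. Cyp24a1 had 0, 4 and 0 reads and Cyp27b1 had 0, 4 and 3, where a count of 0 allows up to 3 reads, so no difference was detectable at this depth. Of 16 handling genes 9 were among the loci compared, with a median log2 ratio of -0.07 on counts and 0.03 on FPKM. Cyp2r1 was lowest with 11, 12 and 27 reads, and Dhcr7, which diverts the vitamin D precursor to cholesterol, highest with 278, 294 and 272. Rxra, the partner of the receptor and named after its values were seen, had 677, 953 and 973 reads, a ratio of 0.747 (0.676 to 0.824).

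Known target genes of the receptor, assembled mostly from bone, kidney and gut, did not stand apart. Of 20 symbols 11 were among the loci compared, 4 of the 11 lay above 0, and the median was -0.10 with no member 2-fold apart. Cd14, the endotoxin co-receptor, was highest with 90, 101 and 64 reads, a ratio of 1.51 (1.08 to 2.11). Tnfsf11, the cytokine RANKL, was lowest with 80, 132 and 119 reads, a ratio of 0.721 (0.536 to 0.966). Igfbp3, a carrier of insulin-like growth factors and named after its values were seen, had 1012, 846 and 871 reads. The calcium channel genes Trpv5 and Trpv6 and the calbindin genes S100g and Calb1 had at most 1 read with 25(OH)D3 and at most 1 with vehicle.

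Identity genes of lymphocytes, the main cells of a node, were close to level. For T cell genes the median log2 ratio was 0.07 and 14 of 22 lay above 0, from Bcl11b at -0.21 to Cd3e at 0.28. B cell genes had a median of 0.01 with 10 of 20 above 0, from Pax5 at -0.21 to Cd79a at 0.17. With 20(OH)D3 over the same vehicle these medians were -0.31 and -0.20. Natural killer and cytotoxic genes had 12 of 16 above 0 and a median of 0.19, with Gzmb, a granule protease, highest at 48, 52 and 25 reads and the activating receptor gene Ncr1 lowest at 15, 42 and 29. Regulatory T cell genes had a median of -0.02 and resident dendritic cell genes of -0.01. Migratory dendritic cell genes, which include those carried from skin, had 12 of 18 above 0 at a median of 0.10, with the chemokine gene Ccl22 lowest at 1360, 1391 and 1834 reads. Of the 62 lists with at least 5 members among the loci compared, 46 had a median between -0.2 and 0.3, 11 lay above and 5 below.

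**Figure D4:**
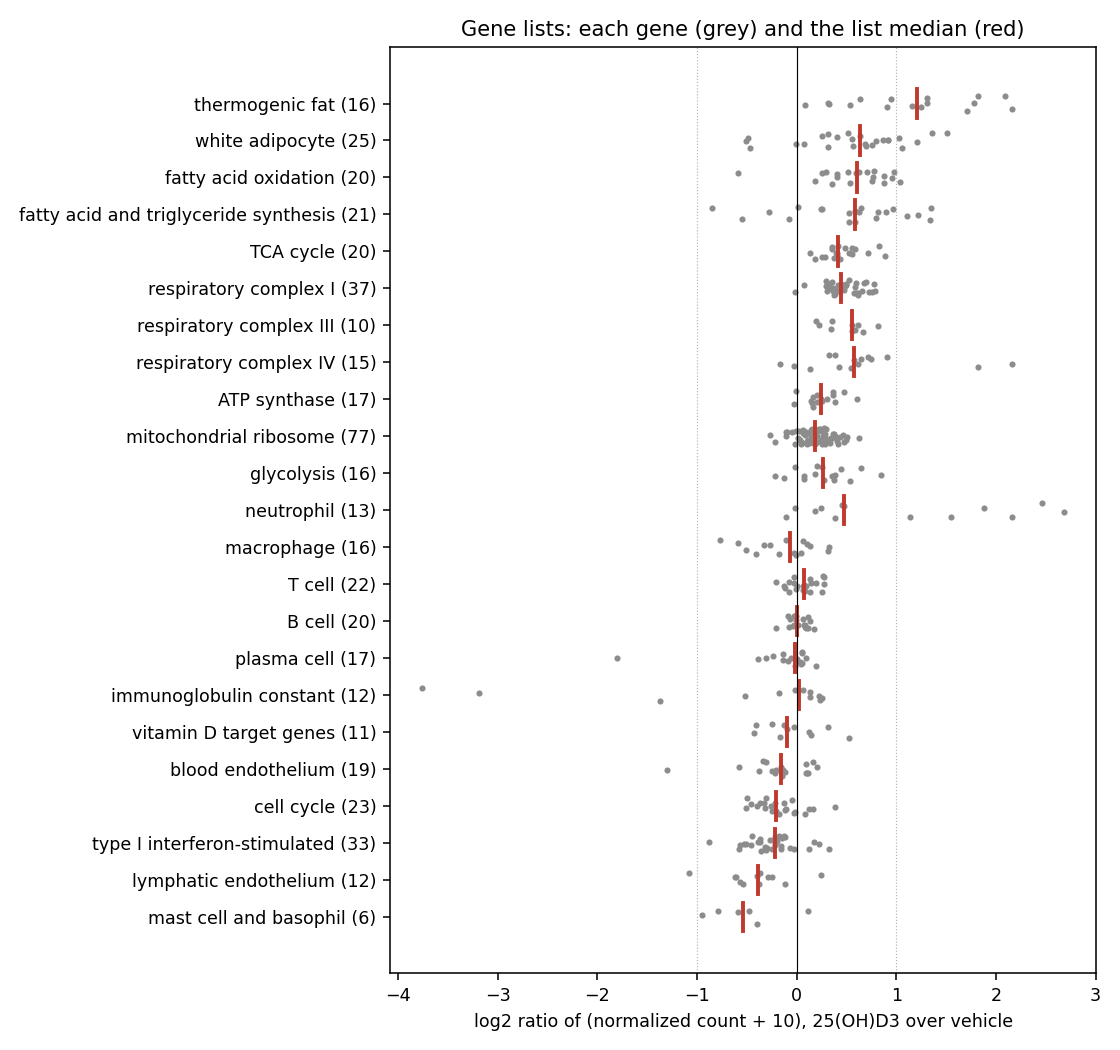
Log2 ratio of (normalized count + 10), 25(OH)D3 over vehicle, for each member (grey points) of 23 gene lists, with the list median in red and the number of members in brackets. The thermogenic list has the highest median, 1.20, B and T cell genes lie at 0.01 and 0.07, and the mast cell and basophil list the lowest at -0.54.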

How the data were processed

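Total RNA of inguinal lymph nodes was extracted with Trizol, per the labels' protocols. The submitters' processing notes name the mouse build GRCm38 and the tools STAR (2.7.0c), Cufflinks (2.2.1), Cuffnorm and Cuffdiff. No annotation release, setting or role of a tool was found in the sources used. The deposited table holds, per locus and library, an FPKM value and a normalized count, a signal whose values behaved as whole reads times 1 factor per library. Overlapping genes are merged, and 768 of the loci compared carry more than 1 symbol.

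Groups were taken from the agent in the labels. Log2 ratios used a pseudocount of 10 normalized counts or 1 FPKM. No count model was run, because the spread within a group of 1 library is unknown. The calculation was checked on simulated counts. Gene lists (66) and members were chosen with earlier results of these data known. Of their 1330 symbols 1324 were found. Genes named are, among loci of at least 5 mean FPKM outside antibody and T cell receptor segments, predicted models, pseudogenes and small RNA genes, the 15 highest and 15 lowest log2 count ratios. Also named are Vdr, Cyp24a1, Cyp27b1, the extremes and 2-fold members of each list and 8 pairs of related genes. Several pairs hold a gene that is among the 15 highest. Some genes that meet this rule are not reported here. Promoters matched by symbol, with the first entry per gene. Alternatives changed the pseudocounts, filter, scaling, scale, fold and loci counted. The length correction and a count minimum over the 2 libraries compared were chosen after seeing the data. Python 3.11.15, pandas 2.3.3 and scipy 1.17.1 were used.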

Additional observations from a re-analysis of the deposited data

How the results depend on the processing

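The number of loci called depended on the low-value settings. Against 59 higher and 18 lower loci, pseudocounts of 0.1 FPKM and 1 count gave 155 and 107, and pseudocounts of 5 FPKM and 20 counts gave 21 and 7. A mean of at least 5 FPKM with 100 counts left 35 and 8. FPKM alone gave 111 and 53, and counts alone 70 and 30. A 1.5-fold threshold gave 354 and 182, and a 3-fold threshold 9 and 6. Without antibody and receptor segments, predicted models, pseudogenes and small RNA genes there were 51 and 7. The counts moved by no more than 1.5 times with no filter, after median-of-ratios or upper-quartile scaling, after TPM rescaling and with the count minimum over the 2 libraries compared. No list median above 0.3 or below -0.2 changed sign under any alternative run, although that of the replication histones became 0 with no filter. Of 62 lists, 10 small medians changed sign on FPKM, 6 under the stricter filter and 5 under the upper quartile. With length taken off, 8 of 61 lists changed sign over the same members. The proteasome median, for instance, was -0.01, against 0.08 without that step. The nuclear noncoding RNA list had 1 member of known length and was left out. The causes were not tested. No paired analysis was possible because each group had 1 library, and for the same reason no library could be left out. Depth limits every gene under about 20 reads, and the spread between mice is unknown.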

Other observations

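Some gene groups outside the main patterns are given here as values, always with 25(OH)D3, 20(OH)D3 and vehicle in that order. Insig1, which holds back sterol synthesis, was highest of the sterol list with 624, 615 and 333 reads, a ratio of 2.01 for 25(OH)D3 over vehicle (1.76 to 2.30). Among p53 target genes Phlda3, an inhibitor of AKT signalling, stood at least 2-fold higher with 319, 534 and 152 reads, and the list median was 0.08. In the hypoxia list, at a median of 0.17, the mitophagy gene Bnip3 was highest at 554, 996 and 377 reads. S100b, a calcium-binding protein of Schwann cells that adipocytes also make, had 24, 25 and 4 reads. The Schwann cell list had 7 of 8 genes above 0 at a median of 0.15.

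The cytokine gene Tnf was highest of the NF-kB list with 206, 184 and 134 reads, a ratio of 1.65 (1.32 to 2.07), while the list median was -0.05. Il6st, the signalling chain shared by the IL-6 family of receptors, was lowest of the interleukin receptor list with 1978, 2362 and 2933 reads, a ratio of 0.724 (0.683 to 0.766). Tsc22d3, a glucocorticoid-induced leucine zipper gene, had 1281, 1105 and 1881 reads and was lowest of its list, whose median was 0.11, and the metallothionein gene Mt1 was highest with 281, 244 and 206. Batf3, a factor of cross-presenting dendritic cells, had 149, 98 and 94 reads, whereas the locus of their receptor gene Clec9a, shared with Clec1b, had 218, 258 and 313. B2m, the light chain of MHC class I, had 25328, 23216 and 21968 reads, and Erap1, which trims its peptides, had 628, 703 and 874. Collagen genes had 15 of 24 above 0 at a median of 0.09, from Col1a1 at 1290, 1180 and 947 reads to Col6a5 at 109, 130 and 205.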
